A study of Drosophila melanogaster with 3 samples.

Results

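The genes described here encode the subunits of the proteasome in Drosophila melanogaster, and the measurement is where the protein Pipsqueak (Psq) sat near their transcription start sites (TSSs). Members were the protein-coding genes whose symbol in the Ensembl annotation of the dm6 genome build starts with Prosalpha, Prosbeta, Rpn or Rpt followed by a digit. This gave 48 of the 13968 protein-coding genes on the chromosome arms. Of these, 32 had a plain symbol and are called constitutive, and 16 had a symbol ending in T or R, with or without a digit after that letter, and are called T or R copies. The naming rule itself uses no binding value, but it was set with earlier results of these data known.

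The samples were whole larvae at the wandering stage of the third instar, with both sexes pooled, from a transgenic line that stably carries psq fused to GFP at its C-terminal end. Chromatin was immunoprecipitated with an antibody against GFP and sequenced (ChIP-seq) in 3 biological replicates of this 1 group, so there is no second condition and no test between conditions. The deposited files are peak lists: 1 per replicate, 1 called on all replicates together, and the optimal list of 10138 peaks kept from the last by the irreproducible discovery rate (IDR), which asks whether peaks rank alike in the replicates. The lists hold no read counts, which leaves sequencing depth unknown, and a gene without a peak is only a gene without a call. All tissues of the larva were mixed. Binding in a tissue that makes up little of the animal, such as the larval testis, therefore cannot be told apart from no binding. The labels do not say whether untagged Psq was also present.

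The proteasome is the protease complex that degrades proteins tagged with ubiquitin. Its barrel-shaped core particle is built of rings of alpha subunits, which gate the entrance, and rings of beta subunits, some of which carry the cutting sites. The regulatory particle at its ends recognises, deubiquitinates and unfolds substrates: Rpt subunits are the ATPases of its base, and most Rpn subunits form its lid or bind ubiquitin. All of these subunits are needed in nearly every cell and in matched amounts. Drosophila also carries additional gene copies of several subunits, of which the alpha copies with a T in their symbols are known from the testis, where they go into sperm-forming cells. Psq is a BTB-domain protein that binds repeats of GA and is known from oogenesis and from silencing by Polycomb proteins.

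A member is called bound when the summit of an optimal peak lay within 1000 bp of any of its annotated TSSs. The sequences below are those on which the description of the bound members turns: the promoter of the highest-scoring member (Rpt5), promoters of 2 further bound members with the same short word near the summit (Rpn3 and Prosalpha6), 201 bases around the summits of Rpt3 and Rpn5, which lay nearer to a neighbouring gene, and the promoter of a T copy without a peak (Prosalpha3T). Promoters run from 250 bases before to 50 bases after the TSS nearest the summit, or the only TSS of Prosalpha3T. All are NCBI RefSeq sequence of the dm6 assembly, read 5′ to 3′ on the gene's own strand. The positions are chr3R:23752626-23752925 (plus strand) for Rpt5, chr2L:19051679-19051978 (plus) for Rpn3, chr2L:10221101-10221400 (plus) for Prosalpha6, chrX:11124569-11124769 (plus) for Rpt3, chr3R:5788982-5789182 (plus) for Rpn5 and chr3R:31123366-31123665 (minus) for Prosalpha3T. Capitals mark the words TATCGATA, GGTCACAC and GAGAG on either strand, so that CTCTC is GAGAG read from the other strand, and TATCGATA reads the same on both.
Rpt5 promoter: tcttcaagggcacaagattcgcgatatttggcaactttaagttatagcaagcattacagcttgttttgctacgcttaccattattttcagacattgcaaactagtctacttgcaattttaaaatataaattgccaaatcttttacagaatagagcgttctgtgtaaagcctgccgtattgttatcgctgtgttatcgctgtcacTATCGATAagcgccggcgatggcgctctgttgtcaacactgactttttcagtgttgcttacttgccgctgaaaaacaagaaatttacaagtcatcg
Rpn3 promoter: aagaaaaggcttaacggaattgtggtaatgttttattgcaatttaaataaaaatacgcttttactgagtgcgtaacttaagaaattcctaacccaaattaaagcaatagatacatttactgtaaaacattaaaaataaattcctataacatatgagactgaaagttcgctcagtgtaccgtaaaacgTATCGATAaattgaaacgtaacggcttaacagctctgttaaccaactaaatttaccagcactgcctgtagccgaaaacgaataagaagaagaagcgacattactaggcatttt
Prosalpha6 promoter: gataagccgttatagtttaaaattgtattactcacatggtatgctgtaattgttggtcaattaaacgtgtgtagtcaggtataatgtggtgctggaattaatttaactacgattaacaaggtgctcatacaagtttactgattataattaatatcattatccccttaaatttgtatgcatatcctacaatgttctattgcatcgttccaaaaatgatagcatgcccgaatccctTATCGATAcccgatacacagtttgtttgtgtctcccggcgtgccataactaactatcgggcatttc
Rpt3 summit window: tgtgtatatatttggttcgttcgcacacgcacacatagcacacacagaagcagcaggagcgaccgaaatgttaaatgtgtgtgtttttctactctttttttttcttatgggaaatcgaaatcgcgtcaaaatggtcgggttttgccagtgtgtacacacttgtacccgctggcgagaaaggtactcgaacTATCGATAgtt
Rpn5 summit window: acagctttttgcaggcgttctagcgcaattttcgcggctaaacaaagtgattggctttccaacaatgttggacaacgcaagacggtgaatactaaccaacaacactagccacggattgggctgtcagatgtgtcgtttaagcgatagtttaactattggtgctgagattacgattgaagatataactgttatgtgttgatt
Prosalpha3T promoter: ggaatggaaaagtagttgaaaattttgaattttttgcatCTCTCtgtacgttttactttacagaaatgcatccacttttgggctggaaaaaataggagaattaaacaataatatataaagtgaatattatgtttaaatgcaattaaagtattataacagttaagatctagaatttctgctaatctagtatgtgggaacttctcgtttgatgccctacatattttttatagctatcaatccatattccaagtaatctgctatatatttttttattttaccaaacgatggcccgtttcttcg

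Optimal and strong Psq peaks lay at a part of the constitutive subunit genes and at none of the T or R copies, of which 1 had weaker peaks. In the optimal list 11 of 32 constitutive genes (34.4%) and 0 of 16 T or R copies were bound, which is 11 of all 48 members (22.9%), against 28.7% of all protein-coding genes. Replicates were compared through their strong peaks, which are the 10138 highest-scoring peaks of each, as many as the optimal list holds. Strong peaks marked 11, 13 and 13 constitutive genes in replicates 1, 2 and 3, a mean of 38.5% ± 3.61 (SD, n = 3), and 0 T or R copies in each. Over all protein-coding genes the shares were 29.4%, 29.7% and 28.2%, a mean of 29.1% ± 0.775 (SD, n = 3). The constitutive share was thus above the share of all genes in each of the 3 replicates, while that of the T or R copies was below it in each. Genes are not replicates, and 3 replicates are too few for a sign permutation to pass a threshold of 0.05, so these shares are given without a test. The order of the constitutive genes and the genome turned with the assignment rule: with each summit given to its nearest TSS only, 7 of 32 constitutive genes (21.9%) were bound, against 23.0% of all protein-coding genes. With the 5069 highest-scoring optimal peaks the shares were 18.8% and 18.4%. With any 1 replicate left out, optimal summits were also kept only where a strong peak of both others matched them. The constitutive share was then 18.8%, against 21.1% to 21.8%. The optimal list itself still rested on all replicates.

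**Figure D1:**
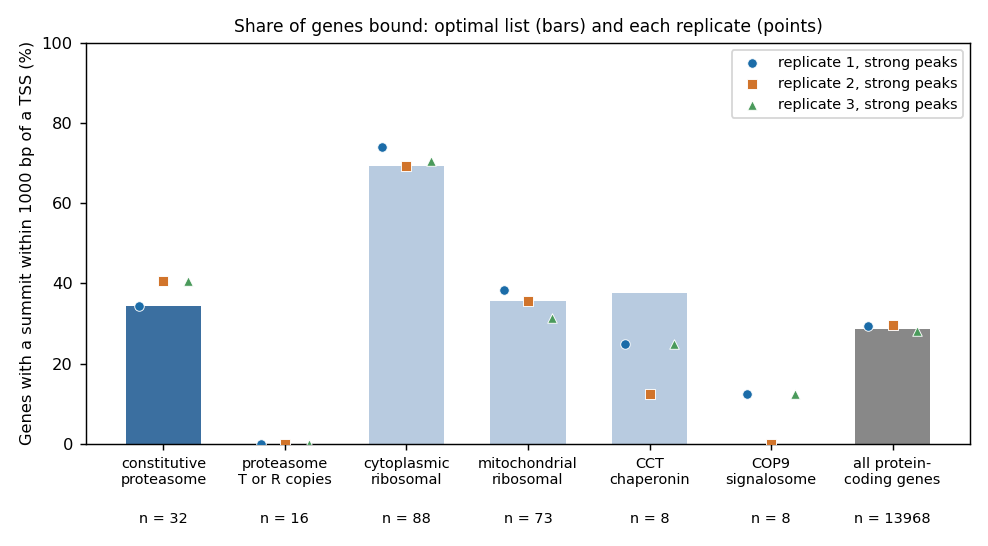
Share of genes (%) with a Psq summit within 1000 bp of a TSS, for proteasome genes, other complexes and all protein-coding genes; bars give the optimal list and points the strong peaks of each replicate. Constitutive proteasome genes stood at 34.4%, T or R copies at 0, cytoplasmic ribosomal protein genes at 69.3% and all protein-coding genes at 28.7%.

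The constitutive genes stood above the background in strong peaks of single replicates and not in strong peaks shared by all replicates. Only 6 constitutive genes (18.8%) had a strong peak in all 3 replicates, against 21.7% of all protein-coding genes. With a strong peak in at least 1 replicate there were 21 (65.6%), against 37.0% of all protein-coding genes. A summit from any list, weak peaks included, lay within reach of 25 constitutive genes (78.1%) and 1 T or R copy (6.25%), against 48.2% of all protein-coding genes. In the list called on all replicates together, before the IDR threshold, the counts were 20 (62.5%) and 1 (6.25%), against 37.9%. Many constitutive genes therefore carried peaks that counted as strong in some libraries and not in others. Some, such as Rpn3 and Rpn9, had a weaker peak in the remaining libraries, while Rpt1 and Rpn6 had none there.

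**Figure D2:**
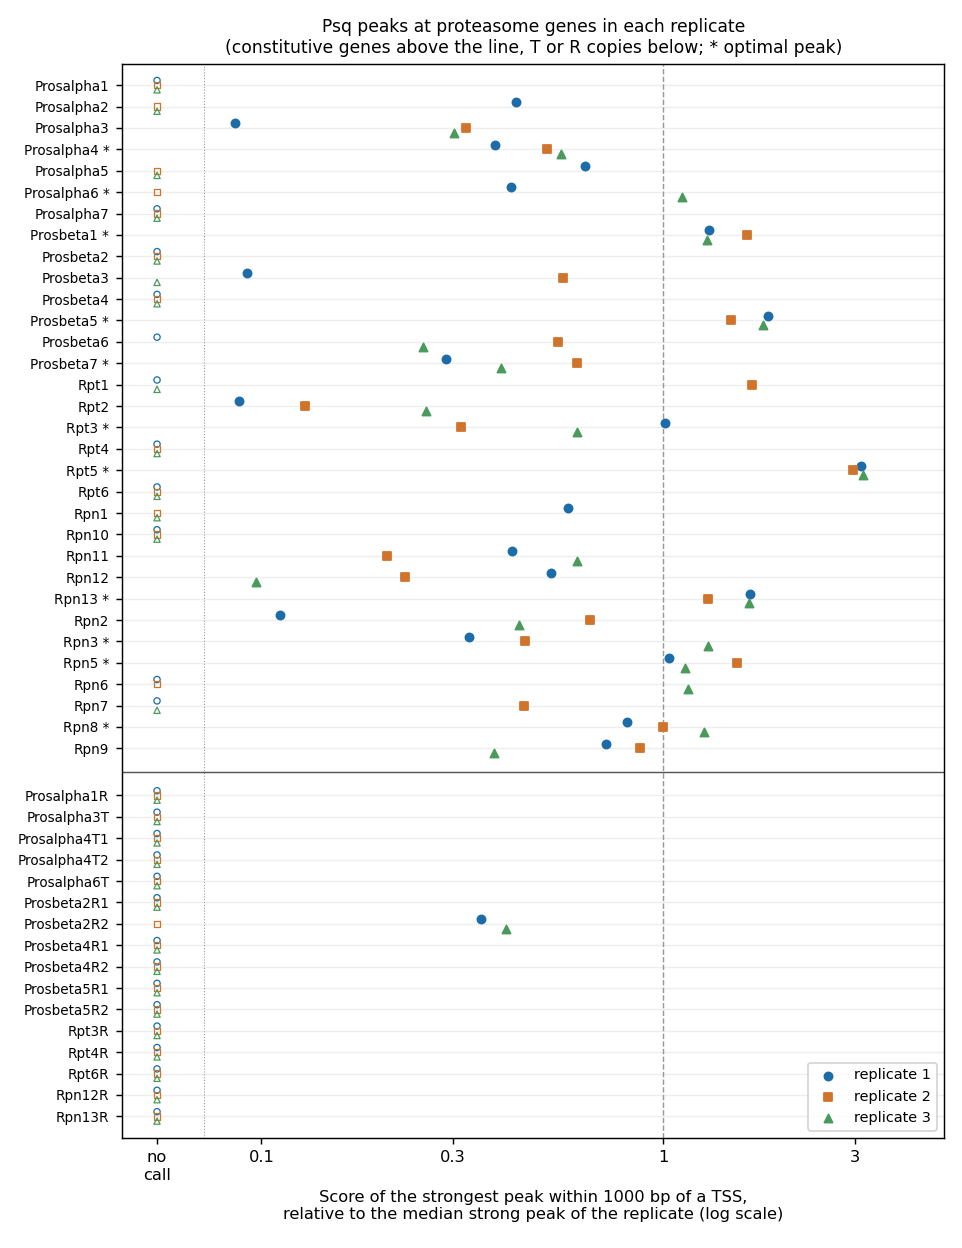
Score of the strongest peak within 1000 bp of a TSS of each proteasome gene in each replicate, divided by the median strong peak of that replicate (log scale); open symbols at the left mark replicates without a call and stars mark the 11 bound genes. Rpt5 lay near 3 in every replicate, and of the 16 T or R copies below the line only Prosbeta2R2 had any peak; in 1 replicate of Rpt3, Prosalpha6 and Prosbeta7 and in 2 of Prosalpha4 the strongest peak is another than the one matched to the optimal summit.

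Heights are given as a relative score, the authors' score of a peak over the median score among the strong peaks of the same library, matched to the optimal summit within 200 bp. A relative score of 1 is thus a typical strong peak. The median relative score of the 11 bound members was 1.02 (SD over replicates 0.233). The optimal scores of these 11 ranged from 91.1 to 575 with a median of 233, against a median of 228 over all bound protein-coding genes, and 6 of the 11 lay above that median. This median moved with the rule, to 0.610 for summits within 200 bp of a TSS, 0.531 with the nearest TSS only, 0.450 with all peaks called on all replicates together, and 1.46 with the 5069 highest-scoring optimal peaks.

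Among the catalytic beta subunits, Prosbeta5 and Prosbeta1 were bound with similar height. Prosbeta5 carries the chymotrypsin-like cutting site and Prosbeta1 the caspase-like one. The Prosbeta5 peak (chr2R:10819869-10820020) had a summit 29 bp upstream of the TSS and a score of 327, rank 2156 of 10138. Its relative scores were 1.82, 1.47 and 1.77 in replicates 1, 2 and 3, a mean of 1.68 ± 0.186 (SD, n = 3). The Prosbeta1 peak (chr2R:16014779-16014942) had a summit 56 bp upstream of the TSS, a score of 311 and relative scores of 1.30, 1.61 and 1.28, a mean of 1.40 ± 0.187 (SD, n = 3). Both were strong in every replicate, and their ranges over replicates overlapped. Each summit lay between the subunit's TSS and that of a gene running in the opposite direction. These were dgo, which starts 94 bp from the Prosbeta5 TSS, and Rrp42, which starts 121 bp from the Prosbeta1 TSS. Neither peak can therefore be assigned to 1 gene, although the subunit's own TSS was the nearer. The gene of the trypsin-like subunit, Prosbeta2, had no peak in any list. Of the other beta genes, Prosbeta7 was bound at the low end of the optimal list (chr3R:5358182-5358256, score 96.8, summit 17 bp upstream of the nearer of 2 TSSs and 172 bp inside the gene from the other), with relative scores of 0.160, 0.608 and 0.395, and was strong in replicate 2 only.

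In the alpha ring both bound members had low scores. Prosalpha6 (chr2L:10221384-10221451, score 107) had its summit 46 bp inside the gene and relative scores of 0.417 in replicate 1 and 0.645 in replicate 3, with no matching summit in replicate 2. Prosalpha4 (chrX:16276263-16276526) had a score of 91.1, rank 10053 of 10138, and relative scores of 0.380, 0.338 and 0.236. Its summit lay 125 bp inside the gene. In replicates 2 and 3, where Prosalpha4 counted as strong, its strongest peak within reach was another one, with relative scores of 0.513 and 0.555. Neither gene reached the height of a typical strong peak in any replicate at the matched summit. Another peak within reach of Prosalpha6 did so in replicate 3, with a relative score of 1.11. By ring, 2 of 7 constitutive alpha genes and 3 of 7 constitutive beta genes were bound.

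The ATPase gene Rpt5 had the highest peak of the family. The peak spanned chr3R:23752741-23752968 with its summit 31 bp upstream of the Rpt5 TSS and a score of 575, rank 778 of 10138. Relative scores were 3.10, 2.96 and 3.14 in replicates 1, 2 and 3, a mean of 3.07 ± 0.0929 (SD, n = 3). No other bound member reached 3 in any replicate, and the replicates of Rpt5 differed little. The summit also lay 11 bp from the TSS of RanBP3, a gene that runs in the opposite direction from a start 42 bp away, so the peak cannot be assigned to 1 of the 2 genes. Rpt3, another of the base ATPases, was bound more weakly (chrX:11124537-11124800, score 161) with relative scores of 0.312, 0.314 and 0.608, a mean of 0.411 ± 0.170 (SD, n = 3). Its summit lay 432 bp upstream, 57 bp from the TSS of the neighbour CG11122. Of the 6 constitutive Rpt genes these 2 were bound, and Rpt4 and Rpt6 had no peak in any list.

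Among the Rpn genes, Rpn5, Rpn13 and Rpn8 were bound in every replicate. Rpn5, a structural subunit of the lid, had a peak at chr3R:5788990-5789142 with a score of 272 and relative scores of 1.03, 1.52 and 1.13, a mean of 1.23 ± 0.258 (SD, n = 3). Its summit was 411 bp upstream of the Rpn5 TSS and 8 bp from a TSS of Hat1, and a second, lower optimal summit (score 98.8) lay 18 bp from the Rpn5 TSS itself. Rpn13, a ubiquitin receptor, had a peak at chr2R:13960642-13960828 with a score of 265 and relative scores of 1.64, 1.29 and 1.63, a mean of 1.52 ± 0.200 (SD, n = 3). That summit was 305 bp upstream and 34 bp from the TSS of CtsL1, with a second summit (score 98.0) 991 bp from the Rpn13 TSS. Rpn8, the lid subunit that pairs with the deubiquitinase Rpn11, had a peak at chr2R:24402344-24402482 with a score of 233 and relative scores of 0.810, 1.00 and 1.26, a mean of 1.02 ± 0.224 (SD, n = 3). Its summit was 604 bp upstream of the nearer of 2 annotated Rpn8 TSSs and 17 bp from a TSS of Slik, but 2373 bp inside the gene as counted from the other, more upstream Rpn8 TSS. All 3 peaks were strong in every replicate, and all 3 lay nearer to the neighbour's start than to the subunit's own.

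Rpn3, a further lid subunit, showed the widest spread among replicates. Its peak (chr2L:19051796-19052059, score 150) had a summit 1 bp upstream of the nearer of its 2 TSSs, 138 bp inside the gene from the other, and relative scores of 0.329, 0.452 and 1.29, a mean of 0.689 ± 0.521 (SD, n = 3). Only replicate 3 had it as a strong peak. Of the 12 constitutive Rpn genes 4 were bound, and 11 had a peak in at least 1 list. Over the 11 bound members, 6 were strong in all 3 replicates, 2 in 2 and 3 in 1, counting any strong peak within 1000 bp. For Rpt3 in replicate 1 (relative score 1.01) and Prosalpha4 in replicates 2 and 3, that peak was not the one matched to the optimal summit.

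A further 10 constitutive genes had a strong peak in at least 1 replicate and no optimal summit within reach. Replicate 1 alone had Prosalpha5, an alpha-ring subunit (relative score 0.639), Rpn1, the large base subunit that binds ubiquitin-like domains (0.579), and Rpn12, a lid subunit (0.525). Replicate 2 alone had the beta-ring subunits Prosbeta3 (0.564) and Prosbeta6 (0.548) and the ATPase Rpt1 (1.66). Replicate 3 alone had the lid subunit Rpn6 (1.15) and the deubiquitinase Rpn11 (0.609). Rpn2, a base scaffold, was strong in replicates 2 and 3 (0.657 and 0.437), and Rpn9, of the lid, in replicates 1 and 2 (0.721 and 0.873). Of these genes, 8 were therefore strong in a single replicate and 2 in 2. Rpt1 and Rpn6 exceeded a typical strong peak in the replicate that had them and had no summit within reach in either other replicate.

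The boundary of the optimal list ran through the family. Prosalpha4 was the lowest member inside it at a score of 91.1, and Rpn2 (86.6) and Rpn11 (86.2) were the nearest outside it in the list called on all replicates together. By distance, optimal summits lay just out of reach, 1104 bp from Prosbeta6, 1221 bp from Rpn12 and 1296 bp from Prosalpha3. No list had a peak within reach of 7 constitutive genes, which were Prosalpha1, Prosalpha7, Prosbeta2, Prosbeta4, Rpt4, Rpt6 and Rpn10.

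None of the T or R copies had a strong peak in any replicate. They were Prosalpha1R, Prosalpha3T, Prosalpha4T1, Prosalpha4T2, Prosalpha6T, Prosbeta2R1, Prosbeta2R2, Prosbeta4R1, Prosbeta4R2, Prosbeta5R1, Prosbeta5R2, Rpt3R, Rpt4R, Rpt6R, Rpn12R and Rpn13R. In 15 of the 16 no list had any peak within 1000 bp. The exception, Prosbeta2R2, had weak peaks in replicates 1 and 3 (relative scores 0.352 and 0.406) and a summit 110 bp upstream of its TSS in the list called on all replicates together, below the optimal threshold (score 69.4). It is 1 of the 4 copies with a neighbour whose start faces away from it. That neighbour, CG1116, starts 129 bp upstream of the Prosbeta2R2 TSS. The summit 110 bp upstream thus lay nearer to the start of CG1116 than to that of the copy. Distances to the nearest optimal summit ran from 2129 bp (Prosbeta2R2) to 95701 bp (Prosbeta4R1) with a median of 21023 bp in the copies, and had a median of 2854 bp in the constitutive genes. Expression was not measured in this study, so whether each copy is silent outside the testis could not be checked here.

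The copies belong to 12 of the constitutive genes and differ in how close they stayed to them. Identity of the aligned amino acids ran from 38.4% in Rpn13R to 100% in Prosalpha1R, with a median of 60.6%. The ATPase copies were among the closest, with 81.7% in Rpt3R, 82.1% in Rpt4R and 88.7% in Rpt6R, and the beta copies ranged from 42.8% in Prosbeta4R1 to 62.1% in Prosbeta2R1. Prosalpha1R encodes the same 244 residues as Prosalpha1. The copies without a peak thus included both close and distant ones, and so did their constitutive counterparts: Prosbeta5, with copies at 60.6% and 52.2%, was bound, and Prosbeta2 and Prosbeta4 were without a peak. Prosalpha1 and Prosalpha1R also share all of their DNA words of 31 bases within 500 bp of the TSS with another place in the genome. A read from there cannot be placed by sequence, so the lack of a call at this pair is uncertain. Rpn3 (10.7%), Prosalpha3 (7.11%) and Rpt6 (4.74%) had few such repeated words and the other 43 members had none. Without the pair the counts were 11 of 31 constitutive genes and 0 of 15 copies.

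Most bound members share their start region with a neighbour. A protein-coding gene on the opposite strand, starting upstream within 1000 bp and running away (head-to-head), was found for 22 of 32 constitutive genes (68.8%) and 4 of 16 T or R copies (25.0%), against 36.2% of all protein-coding genes. Among genes with such a neighbour, 10 of 22 constitutive genes (45.5%) and 0 of 4 copies were bound, against 41.6% of all protein-coding genes of that kind. Among genes without one, 1 of 10 constitutive genes and 0 of 12 copies were bound, against 21.3%. The exception among the 11 bound members was Prosbeta7. Set against genes of the same arrangement, the share of bound constitutive genes was near the background with a neighbour and below it without one. This arrangement was examined after the binding calls were seen.

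**Figure D3:**
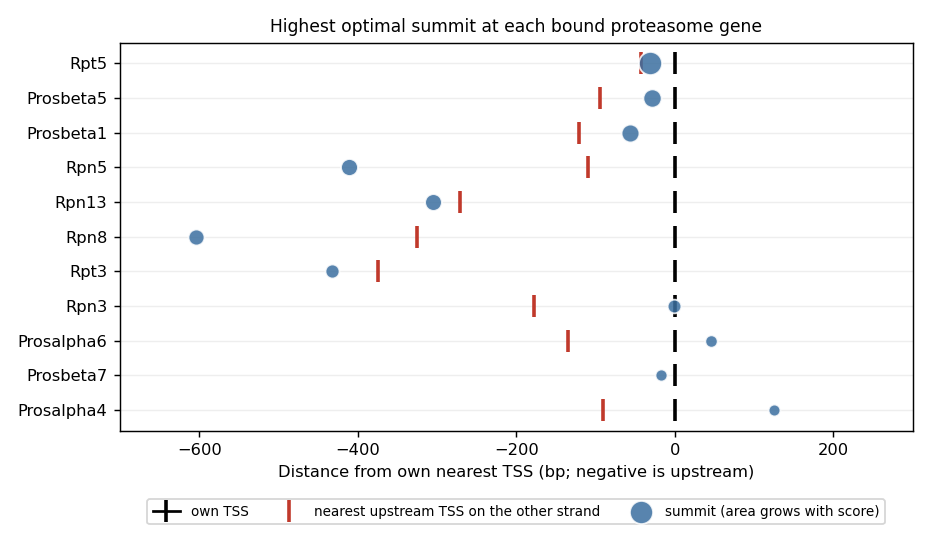
Position of the highest optimal summit of each bound proteasome gene relative to the nearest TSS of its own (bp, negative is upstream), with red marks for the nearest TSS of an upstream neighbour on the other strand and circle area growing with the score. Red marks use the smallest distance from any own TSS. For Rpn3 this was counted from its more upstream TSS, so its red mark is drawn too near. Of the 11 summits, 9 lay upstream of the nearest own TSS, and those of Rpn5, Rpn13, Rpn8 and Rpt3 lay beyond the start of the neighbour.

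Counted from the most upstream TSS, 6 of the 11 summits lay upstream of the gene and 5 inside it. By position, 6 of the 11 summits lay within 100 bp of the subunit's own TSS, which were those of Rpt5, Prosbeta5, Prosbeta1, Rpn3, Prosalpha6 and Prosbeta7. For 6 members the own TSS was the nearest of all annotated ones, and for 5 (Rpt5, Rpn5, Rpn13, Rpn8 and Rpt3) that of the neighbour was. The 4 members with summits over 300 bp away were Rpn5, Rpn13, Rpn8 and Rpt3, and of these only Rpn5 had an additional optimal summit at its own start.

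The short words at the bound summits of this family differed from those at Psq summits in general. Within 100 bp of the summit, TATCGATA occurred at 6 of the 11 bound members (54.5%), against 2.89% of all 10105 optimal summits on the chromosome arms and 5.29% of the 5237 within reach of a protein-coding TSS. TATCGATA is the DNA replication-related element, which is bound by the factor DREF at promoters of proliferation and housekeeping genes. GAGAG, the repeat that Psq and the GAGA factor bind, occurred at 2 of the 11 (18.2%), against 45.3% of all optimal summits and 46.5% of those within reach of a protein-coding TSS. GAGAGAGA occurred at none of the 11, against 8.65% and 9.45%. The word centre lay 11 bp from the summit in Rpt5, 58 bp in Prosalpha6, 58 bp in Rpn3, 62 bp in Prosbeta1, 91 bp in Rpn13 and 94 bp in Rpt3. GGTCACAC, the core of a housekeeping promoter motif, was found 88 bp from the summit of Prosalpha4 and 75 bp from that of Prosbeta7. These are 2 of the 11 (18.2%), against 2.65% of all optimal summits and 4.83% of those within reach of a protein-coding TSS. GAGAG was found at Rpn8 and Prosalpha4, the nearest being 50 bp and 60 bp from their summits, and Prosbeta5 and Rpn5 held none of the 3 words. These are matches of letters in a window, and with 11 summits each one moves the share considerably.

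The promoters of the family, bound or not, also differed from the genome in these words. In promoters taken at the most upstream TSS of each gene, TATCGATA was present in 12 of 32 constitutive genes (37.5%) and 0 of 16 T or R copies, against 9.36% of all protein-coding genes. GGTCACAC was present in 5 (15.6%) and 0, against 7.69%. GAGAG showed the opposite order, with 3 constitutive genes (9.38%) and 6 T or R copies (37.5%), against 29.7%. The copies that held it were Prosalpha3T, Prosalpha4T2, Prosbeta2R1, Prosbeta2R2, Prosbeta5R1 and Rpt4R, and all of them were unbound. GAGAGAGA occurred in 0 constitutive genes and 1 copy (6.25%), against 3.03%. The antioxidant-response word TGACNNNGC, read by the factor Cnc with a small Maf protein, was present in 5 (15.6%) and 1 (6.25%), against 8.62%. Median GC content was low in both classes, 33.5% and 32.7%, against 38.0%.

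**Figure D4:**
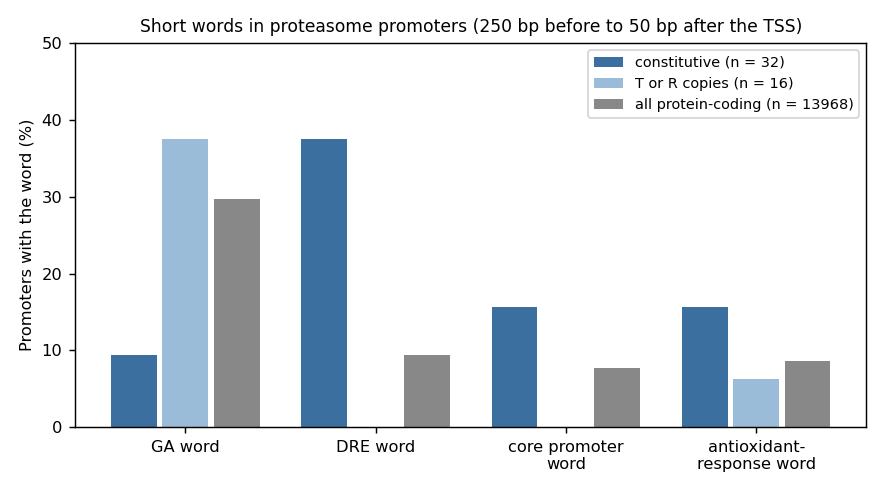
Share of promoters (%) holding each short word on either strand, for constitutive proteasome genes, T or R copies and all protein-coding genes. The word of the DNA replication-related element (DRE) stood at 37.5% in constitutive genes and 0 in the copies, and the GA word at 9.38% and 37.5%.

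Binding was also counted by promoter word, with no test, in these small numbers of genes. Of the constitutive genes with TATCGATA in the promoter, 5 of 12 were bound (41.7%), against 42.0% of all protein-coding genes with it. Of those without it, 6 of 20 were bound (30.0%), against 27.3% of all protein-coding genes without it. For GGTCACAC the order in the family was the reverse of that in the genome: 1 of 5 constitutive genes with it and 10 of 27 without it (37.0%) were bound, against 41.3% and 27.6% of all protein-coding genes. For GAGAG the counts were 2 of 3 with it (66.7%) and 9 of 29 without it, against 34.2% and 26.3%. The 7 that held TATCGATA and were not bound were Prosalpha3, Prosalpha5, Prosbeta2, Prosbeta6, Rpn7, Rpn9 and Rpn12. Of these 7, Prosbeta2 alone had no peak in any list.

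Genes that act around the proteasome included peaks far above those of the subunit genes. Of 25 other genes of the ubiquitin and proteasome pathway found in the annotation, 14 were bound (56.0%), against 28.7% of all protein-coding genes. These shares are not adjusted for the number of TSSs per gene. By role these were 4 of 5 genes of ubiquitin and its activating enzyme, 4 of 7 of substrate delivery, 3 of 4 regulators, and 3 of 9 assembly factors, activators and associated proteins. The highest was Uba1, the enzyme that activates ubiquitin, with a score of 2258 (rank 49 of 10138) and relative scores of 17.2, 13.5 and 8.60, a mean of 13.1 ± 4.31 (SD, n = 3). Its summit was 531 bp downstream of the TSS. Of 3 optimal summits within reach of Uba1, the next highest (score 190) lay 2 bp from the TSS. Ubi-p63E, a polyubiquitin gene, had a score of 754 and a mean relative score of 4.50 ± 0.684 (SD, n = 3). Both stood above Rpt5, the highest subunit gene, in each replicate.

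Regulators of proteasome gene expression were also among the bound genes. Pngl, which encodes the glycanase that processes the Cnc-type activator in other animals, had a score of 331 and a mean relative score of 1.60 ± 0.447 (SD, n = 3). The gene of the activator, cnc, had a score of 318 and relative scores of 3.15, 2.07 and 1.27, a mean of 2.16 ± 0.945 (SD, n = 3). With 10 annotated TSSs and 12 optimal summits within reach, cnc offered more places for a call than any subunit gene. REG, a proteasome activator, had a score of 312 and a mean of 1.62 ± 0.296 (SD, n = 3), with a summit 61 bp from the TSS of its neighbour sno and 712 bp from its own. Pomp, which helps assemble the core particle, was weaker, with a score of 132 and a mean of 0.644 ± 0.174 (SD, n = 3). PI31, another regulator of the proteasome, was not bound and had a strong peak in replicate 1 only. Sem1, a small lid subunit whose symbol falls outside the naming rule, was not bound.

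Other large complexes, whose subunits are likewise needed together, spanned a wide range, and the constitutive proteasome genes lay between its ends. Over all protein-coding genes the shares were 28.7% in the optimal list and 29.1% ± 0.775 (SD, n = 3) over replicates. Cytoplasmic ribosomal protein genes were bound in 61 of 88 cases (69.3%, replicates 71.2% ± 2.37, SD, n = 3). Mitochondrial ribosomal protein genes were bound in 26 of 73 (35.6%, replicates 35.2% ± 3.45). The CCT chaperonin, which folds actin and tubulin, had 3 of 8 (37.5%, replicates 20.8% ± 7.22). The COP9 signalosome, a relative of the proteasome lid, had 0 of 8 (replicates 8.33% ± 7.22). Constitutive proteasome genes, at 34.4% in the optimal list, lay slightly below the mitochondrial ribosomal and CCT genes there. At 38.5% ± 3.61 over replicates, they overlapped the mitochondrial ribosomal genes in range and lay below the cytoplasmic ones in each replicate. Against the 8 CCT genes the order turned. The CCT shares were 25.0%, 12.5% and 25.0% in replicates 1, 2 and 3, below the constitutive proteasome share in each. TATCGATA was within 100 bp of the summit at 16 of 61 bound cytoplasmic ribosomal genes (26.2%), 2 of 26 bound mitochondrial ones (7.69%) and 0 of 3 bound CCT genes, against 5.29% of summits near protein-coding genes. GAGAG was found at 5 (8.20%), 7 (26.9%) and 0 of them.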

How the data were processed

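Psq-GFP ChIP-seq peaks came from 3 biological replicates of whole larvae, with library fragments of 200 to 300, 175 to 275 and 175 to 250 bp in replicates 1, 2 and 3. Peaks were called per replicate and on all replicates together against 1 control alignment and thresholded by IDR, per the deposited file listing. The caller, the aligner and the handling of reads that map to several places are not given in the sources consulted here. The score of each peak is the authors' own signal value, and the summit offset was deposited by the authors in the same lists; scores were used only within a list. The lists held 28037, 28294 and 24291 peaks in the replicates, 30000 on all together and 10138 in the optimal list. Depth is unknown.

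Summits were assigned to TSSs of Ensembl release 115 (dm6, 19630 TSSs of protein-coding genes) with python 3.11.15, numpy 2.4.6 and pandas 2.3.3. Assignment was tested on simulated summits. A summit within 1000 bp counted as bound, and one within 200 bp as the same site. Words were searched on both strands. Translated proteins were aligned globally with biopython 1.88 (gap open 11.0, extend 1.0), with identity over aligned residues. Of 26 pathway genes listed, 2 matched through a synonym and 1 (Ecm29) was not matched. The dm3 lists were not used.

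The members, gene lists and words were chosen with earlier results of these data known. Every T or R copy and every bound member is named, the 8 highest-scoring bound ones with each replicate's value, as is every member strong in at least 1 replicate. Of the pathway genes the 4 highest and Pomp, PI31, REG and cnc are named. Sem1 and members without any peak, where named, were added after their values were seen.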

Additional observations from a re-analysis of the deposited data

How the results depend on the processing

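The 0 T or R copies bound stayed at 0 under every alternative except the use of all peaks called on all replicates together, which gave 1, and whole replicate lists, which raised their mean share per replicate to 4.17%. With all peaks called together 21 members were bound, 20 of them constitutive, against 37.9% of all protein-coding genes, with a median relative score of 0.450. The 5069 highest-scoring optimal peaks alone left 6 members, all constitutive, against 18.4%, with a median of 1.46. Assigning each summit to its nearest TSS only left 7, all constitutive, against 23.0%, with a median of 0.531. Keeping only optimal summits with a strong peak within 100, 200 or 500 bp in all replicates left 6 members, all constitutive. The median was 1.46 each time, and the shares of all genes were 17.9%, 19.4% and 20.5%. The 200 bp setting was chosen after seeing the data. Without replicate 1, 2 or 3 in turn, optimal summits matched by strong peaks in the other 2 left 6 members each time, all constitutive. Medians ran from 1.45 to 1.46, and the shares of all genes from 21.1% to 21.8%. The optimal list itself still rested on all replicates. Within 500 bp of a TSS 10 members were bound, all constitutive, which is 31.2% of the constitutive genes against 25.6% of all genes. Within 200 bp 8 were bound, all constitutive, which is 25.0% against 21.5%, with a median of 0.610. The mean share of constitutive genes per replicate was 62.5% with whole replicate lists, 34.4% within 500 bp, 26.0% within 200 bp and 37.5% to 40.6% with a replicate left out. For the whole lists and the narrower windows, the per-replicate share of all protein-coding genes is not given. Those values, and the 4.17% of the copies, therefore cannot be read as above or below the background. Of the other pathway genes 9 were bound by the 5069 highest-scoring optimal peaks. Leaving out Prosalpha1 and Prosalpha1R, chosen after seeing the data, moved no count of bound genes. The constitutive share was 34.4% in the optimal list, against 28.7% of all genes. It was also above that of all genes within 500 bp (31.2% against 25.6%) and within 200 bp of a TSS (25.0% against 21.5%). With all peaks called on all replicates together it was 62.5%, against 37.9%. It was below that of all genes with the nearest TSS only (21.9%). With the 5069 highest-scoring peaks it was 18.8%, within 4 percentage points of the share of all genes, on either side. The same held for optimal summits matched by strong peaks in several replicates. The cause was not tested. No paired analysis was possible because the series has 1 group. Without read counts, the depth behind a weak or missing peak is unknown.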
